A study of Mus musculus with 4 samples.

Results

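S3-gated cells were the proximal tubule cells of these libraries that carried transcripts of Slc7a13, the aspartate and glutamate carrier of the late proximal tubule, or of Slc22a30, a member of the organic anion transporter family. They were chosen by 3 levels in each cell, given as counts per 10000 unique molecular identifiers (CP10k; a unique molecular identifier, UMI, stands for 1 captured transcript). A cell was taken when Slc7a13 and Slc22a30 together reached 5 CP10k, Slc5a2 (the glucose carrier SGLT2 of the early proximal tubule) was under 4 CP10k, and Slc12a1 and Umod, genes of the thick ascending limb, were together under 20 CP10k. Of the 32407 barcodes with at least 1000 genes and at most 50% mitochondrial counts, 4552 met this rule.

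The study compared kidney cortex of male mice by 10x Genomics 3′ single-cell RNA sequencing, with the question of what loss of the transcription factor TFEB in proximal tubular epithelial cells (PTECs) does in young and in aged mice. There were 4 groups, young Tfebfl/fl and young Tfebfl/fl KAP mice of 6 weeks and aged Tfebfl/fl and aged Tfebfl/fl KAP mice of 24 months, and 4 values are given in this order throughout. All mice carried both floxed Tfeb alleles, and the KAP mice also carried Cre recombinase driven by the promoter of the kidney androgen-regulated protein gene Kap, which in male mice acts mainly in the S3 segment. Cortex of 2 or 3 mice was pooled for each group, so that each group is 1 library, no difference between mice could be tested, and a difference between libraries cannot be told apart from a difference between preparations.

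The proximal tubule reclaims filtered solute along its S1, S2 and S3 segments. The S3 segment is its last, straight part, which leaves the cortex for the outer stripe, and takes up and secretes organic anions. In male mice it is also the main site of androgen-responsive transcription in the kidney. TFEB, with its relatives TFE3, MITF and TFEC, binds a short DNA element in the promoters of lysosomal and autophagy genes.

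The gated cells numbered 1106, 809, 1305 and 1332, and had 23725629, 17761745, 33303670 and 33862542 UMIs in all. They made up 10.0, 9.55, 21.8 and 19.2% of the kept barcodes (exact 95% binomial intervals 9.48 to 10.6, 8.93 to 10.2, 20.7 to 22.8 and 18.3 to 20.2%, which like all intervals here cover counting error only). The share was higher in both aged libraries, and the cells gated on Slc5a2 at 4 CP10k or more went the other way, with 13.2, 16.9, 8.08 and 7.46%. These shares depend on how the cortex was cut and dissociated, whose part in them was not tested. Median depth was 20934, 19582, 25364 and 22846 UMIs per gated cell, and mitochondrial genes took a median of 22.4, 20.4, 22.3 and 21.5% of a cell's counts. Scrublet scored 59, 27, 60 and 61 of the gated cells as doublets, and any 2 libraries shared between 10 and 27 cell barcodes among all those kept, at most 0.390% of the smaller library.

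The expression of each gene was summed over the gated cells of a library and is given as CPM, its counts scaled to a total of 1000000 UMIs. Kap took 7.95, 7.69, 5.74 and 7.11% of all UMIs of these cells, 79535, 76867, 57388 and 71123 CPM, against 1413, 3967, 2321 and 6488 CPM in the Slc5a2-gated cells of the same libraries. The medium-chain acyl-CoA synthetase gene Acsm3 stood at 329.6, 326, 88.8 and 149 CPM, against 4.11, 5.13, 3.59 and 5.35 CPM in Slc5a2-gated cells. Cndp2, which encodes a cytosolic dipeptidase, stood at 1572, 1779, 839 and 992 CPM. These 3 markers were higher than in the early segment in each library. The label has a limit, since other genes that textbooks place in S3 were nearly absent: Cyp7b1, a steroid hydroxylase, was at 25.9, 6.14, 1.98 and 1.80 CPM and the anion transporter Slc22a19 at 11.7, 2.48, 2.67 and 1.92 CPM. At the same time the S2 anion transporter gene Slc22a6 was at 749.7, 1037, 695 and 774 CPM, above the 105, 201, 144 and 230.2 CPM of Slc5a2-gated cells, and the phosphate carrier gene Slc34a1, typical of the convoluted part, was at 3303, 3669.5, 3794 and 3735 CPM. The members are therefore named by their rule, as S3-gated cells.

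**Figure D1:**
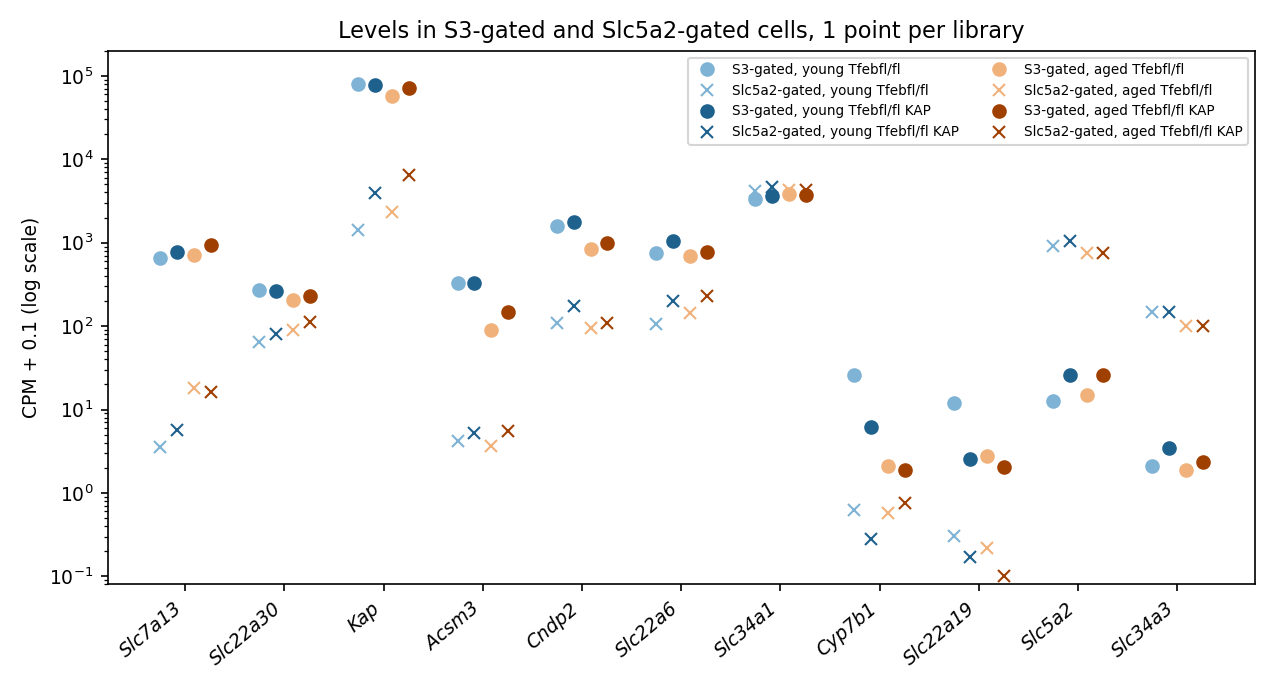
Levels of segment genes (CPM with 0.1 added, log scale) in S3-gated cells and Slc5a2-gated cells of the 4 libraries, 1 point per library. Slc7a13 and Slc22a30 lie higher in S3-gated cells by the rule that selected them. Kap, Acsm3 and Cndp2, which the rule did not use, also lie higher in every library. Slc34a1 lies near the level of Slc5a2-gated cells, and Cyp7b1 and Slc22a19 lie at the lower end of the scale in both populations.

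A few members did carry the outer-stripe genes. Cells with Cyp7b1, Slc22a19, Bcat1, Slc22a7 and Slc7a12 together at 3 CP10k or more numbered 64, 33, 9 and 26, which is 5.79, 4.08, 0.690 and 1.95% of the members. By this choice they held Cyp7b1 at 357, 149, 366 and 132 CPM, whereas the other members held less than 0.5 CPM of it. They held most of the Cyp7b1 counts in each library, and their number was lowest in the aged Tfebfl/fl library. Slc22a7 was at 548, 518, 143 and 322 CPM in them, but most of its counts lay in other members in every library except young Tfebfl/fl. With the gate threshold at 5 CP10k, 187, 123, 209 and 116 members lay just inside, between 5 and 6 CP10k, and 201, 139, 182 and 94 cells just outside, between 4 and 5 CP10k. Kap stood at 74611, 69438, 52424 and 59229 CPM in the first set and at 66732, 62160, 46193 and 48946 CPM in the second, so the threshold cuts through a continuum.

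Genes of other cell types were low but not absent in the gated cells. The markers of the thick ascending limb, 4 genes led by Umod, summed to 60.6, 7.77, 18.8 and 9.39 CPM (8217, 7642, 5703 and 6966 CPM in the barcodes gated on neither segment). The gate itself limits Umod and Slc12a1, so this sum was held low in part by the rule. Markers of principal cells summed to 63.9, 102, 54.6 and 87.4 CPM, those of myeloid cells to 18.3, 22, 40.0 and 13.8 CPM, and the haemoglobin genes to 94.8, 54.5, 24.5 and 55.5 CPM. Stromal markers, led by Acta2, summed to 5.99, 41.2, 4.80 and 1.03 CPM. The young Tfebfl/fl library was the highest for the thick ascending limb and for haemoglobin, and the young Tfebfl/fl KAP library for stroma. Injury markers were close to nothing, with Havcr1, Krt20, Lcn2 and Vcam1 together at 1.22, 1.80, 3.99 and 2.24 CPM. The deposited counts had been corrected for background RNA, and the entries this correction had set to 0 made up 2.90, 12.5, 9.41 and 12.9% of the entries, fewest in the young Tfebfl/fl library.

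Beside Slc5a2-gated cells, 328 of 6935 genes (4.73%) were at least 1.5-fold higher in S3-gated cells of all 4 libraries and 628 (9.06%) lower, a description only, because the rule itself set these populations apart. The genes named for this contrast were taken by the smallest ratio over the 4 libraries after the values had been seen. Higher were the organic anion carrier gene Slco1a1 (log2 ratios from 4.84 to 6.82), the Iroquois transcription factor gene Irx3 (4.61 to 5.0), the monocarboxylate carrier gene Slc5a8 (4.43 to 5.29), the aspartic protease gene Napsa (3.98 to 5.13) and the fatty acid carrier gene Cd36 (3.85 to 6.05). In CPM, Slc5a8 was at 357, 277, 241 and 234 CPM and Napsa at 1305, 1064, 1271 and 1020.4 CPM. Lower were the sodium-phosphate carrier gene Slc34a3, at 1.98, 3.32, 1.80 and 2.27 CPM against 148, 148, 100.3 and 100.2 CPM, the vitamin D binding protein gene Gc, at 1.94, 1.18, 0.841 and 0.679 CPM against 158, 111, 80.7 and 37.8 CPM, and Gatm, which encodes the first enzyme of creatine synthesis, at 339, 184, 331 and 171 CPM against 4441, 3857, 3285 and 2577 CPM.

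Tfeb itself, at chr17:47737037-47792416 of mm10 (GRCm38.p6), was a sparse transcript in these cells, at 6.70, 4.79, 5.98 and 2.33 CPM. The log2 ratio of Tfebfl/fl KAP over Tfebfl/fl was -0.48 (95% interval -0.88 to -0.10) in young and -1.35 (95% interval -1.75 to -0.97) in aged mice, and both Tfebfl/fl KAP libraries lay below both Tfebfl/fl libraries. Over 9 other settings the ratio ran from -0.83 to 0.58 in young mice, turning direction when cells were thinned to 2000 UMIs, and from -1.92 to -1.06 in aged mice. Few counts remain at that depth, and in a separate draw 1.45% of the young Tfebfl/fl and 1.24% of the young Tfebfl/fl KAP cells held a Tfeb UMI, which did not turn the order. The 3′ tags need not lie in the deleted exons, so this level does not check the deletion. In Slc5a2-gated cells Tfeb stood at 8.87, 8.84, 10.2 and 6.77 CPM. Of the relatives, Tfe3 was at 6.53, 7.94, 7.15 and 6.11 CPM, Mitf at 4.89, 4.62, 4.50 and 4.05 CPM and Tfec at 33.9, 36.6, 24.7 and 25.4 CPM. Tfec was lower in both aged than in both young libraries, and by genotype its log2 ratios were 0.11 in young and 0.04 in aged mice. Apoa4, the gene of an apolipoprotein made mainly by gut and liver, was all but absent from these cells, at 1.22, 0.169, 0.0901 and 0.177 CPM.

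Of the genes in the files, 6696 had a mean of at least 10 CPM over the 4 libraries and were compared. A gene was counted as higher or lower when its CPM ratio was at least 1.5-fold. Between aged and young Tfebfl/fl mice 247 genes (3.69%) were higher and 183 (2.73%) lower with age. Between aged and young Tfebfl/fl KAP mice, 2 libraries not used in the former pair, 184 (2.75%) were higher and 174 (2.6%) lower. In both pairs together 101 genes (1.51%) were higher, which is 40.9% of the Tfebfl/fl list and 54.9% of the Tfebfl/fl KAP list, and 79 genes (1.18%) were lower, 43.2 and 45.4% of the lists. The median log2 ratio of all genes was 0.01 and -0.02, and across the 6696 genes, which are not independent replicates and share the depth of their libraries, the ratios of the pairs had a Pearson r of 0.522.

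**Figure D2:**
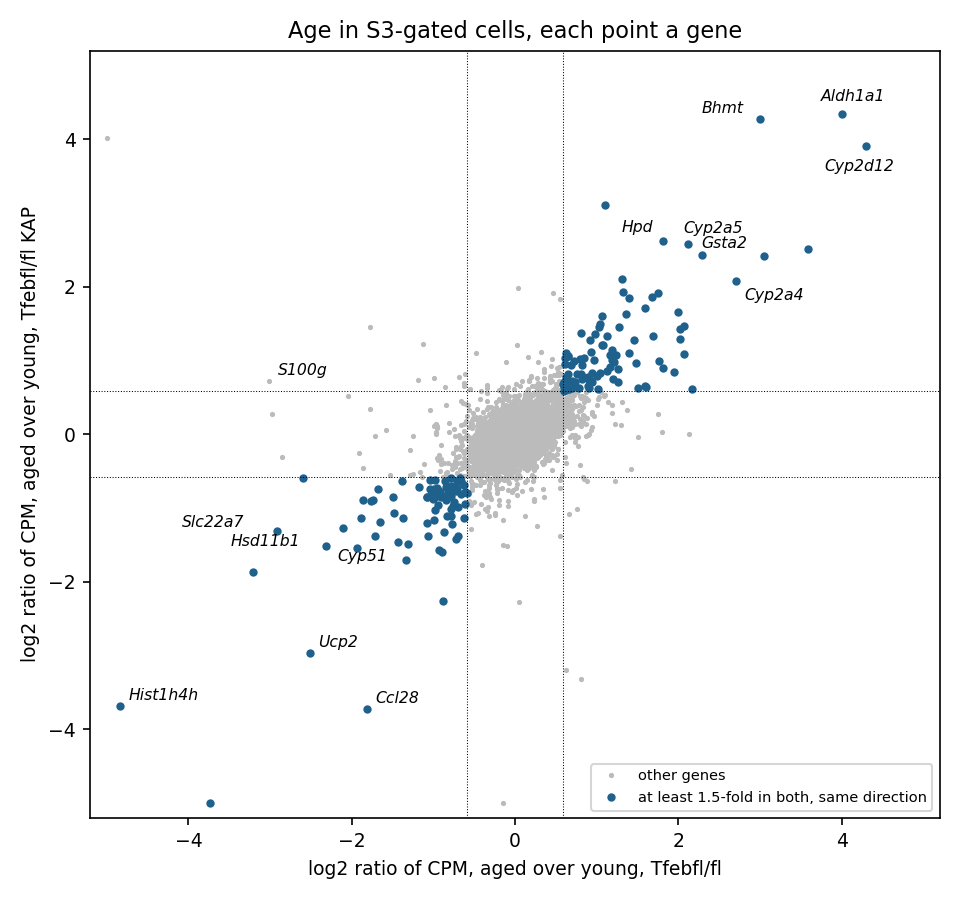
Log2 ratio of CPM, aged over young, in Tfebfl/fl mice (x) and in Tfebfl/fl KAP mice (y) for 6696 genes in S3-gated cells, with dotted lines at 1.5-fold and points held at the frame beyond a log2 ratio of 5. Cyp2d12, Aldh1a1, Bhmt and Gsta2 lie high in both pairs, Hist1h4h, Ucp2 and Ccl28 low in both, and S100g low in one and high in the other.

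Among genes with a mean of at least 50 CPM, the highest ratio of aged over young in each pair was that of Cyp2d12, a cytochrome P450 gene at chr15:82555043-82559413, which stood at 35.9, 37.3, 706 and 562 CPM. Its log2 ratios were 4.30 (95% interval 4.20 to 4.40) in Tfebfl/fl and 3.91 (95% interval 3.80 to 4.03) in Tfebfl/fl KAP mice. In Slc5a2-gated cells both aged libraries were likewise above both young ones, with 21.2, 30.1, 569 and 604 CPM. Cyp2a4, a testosterone hydroxylase gene, was at 57.3, 120.0, 374 and 505 CPM and its neighbour Cyp2a5, a coumarin hydroxylase gene, at 48.6, 57.8, 211 and 347 CPM. Both aged libraries were above both young ones for each gene, but Cyp2a4 and Cyp2a5 are near-identical copies whose counts can be split between them, so their separate levels are uncertain. Of 16 compared members of a cytochrome P450 list, 6 were higher and 1 lower with age in Tfebfl/fl mice, beside 3.69 and 2.73% of all genes. In Tfebfl/fl KAP mice 5 were higher and 1 lower, beside 2.75 and 2.6%. The median log2 ratios of the list were 0.39 and 0.15. The list also held Cyb5a, the cytochrome b5 gene, and left out some P450 genes that were compared. Of those left out, Cyp2c23 had log2 ratios by age of 1.76 and 0.99. Cyp4a12a was past 1.5-fold higher in the Tfebfl/fl pair, and Cyp4a14 was at -0.73 in the Tfebfl/fl KAP pair. Cyp24a1, the enzyme that breaks down active vitamin D, was among the list members higher in both pairs, at 17.2, 24.7, 35.5 and 69.3 CPM. The 1 lower member of the list in each pair was Cyp51, which is a sterol synthesis enzyme.

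Conjugation enzymes moved the same way in part. Gsta2, a glutathione transferase gene with near-identical copies, was at 44.8, 44.3, 371 and 236 CPM, with log2 ratios of 3.05 and 2.41. Slc5a2-gated cells held Gsta2 at 610.1, 584, 638 and 661 CPM, so that young S3-gated cells were the low ones. Of 38 glutathione and conjugation genes, 9 were higher and 2 lower in the Tfebfl/fl pair and 5 higher and 1 lower in the Tfebfl/fl KAP pair, beside the same shares of all genes. The median log2 ratios were 0.15 and 0.11, against 0.01 and -0.02 for all genes. Gstt1, Mgst1 and Sult1c2 were higher in both, and the glucuronosyltransferase gene Ugt2b38 lower in both.

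Of 42 genes of amino acid metabolism, 9 were higher and 2 lower in Tfebfl/fl and 8 higher and 2 lower in Tfebfl/fl KAP mice, where 3.69 and 2.73% and 2.75 and 2.6% of all genes were. The median log2 ratios of the list were 0.18 and 0.22. Bhmt, which remethylates homocysteine with betaine, was at 2.95, 2.08, 23.8 and 40.9 CPM. Hpd, an enzyme of tyrosine breakdown, was at 52.3, 30.6, 184 and 189 CPM, and Hao2, a peroxisomal hydroxyacid oxidase gene, at 232, 166, 581 and 637 CPM. Kynu, the kynureninase of tryptophan breakdown, was at 6.36, 3.38, 21.5 and 12.8 CPM. Each of these 4 genes was higher in both aged libraries than in both young ones. Cndp2 and Oat, the ornithine aminotransferase gene, were lower in both pairs, Cndp2 with log2 ratios of -0.91 and -0.84. The aldehyde dehydrogenase genes Aldh1a1 and Aldh1a7, which turn retinal into retinoic acid or clear other aldehydes, were rare in young cells: Aldh1a1 was at 1.43, 1.86, 23.2 and 38.3 CPM and Aldh1a7 at 4.13, 5.29, 20.2 and 28.7 CPM. Rdh16f2, of the retinol dehydrogenase family, was at 122, 100.0, 335 and 242 CPM, again with both aged libraries above both young ones.

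Azgp1, which encodes zinc-alpha-2-glycoprotein, was also higher with age in both pairs, at 56.3, 130.0, 229 and 349 CPM. Pigr, the receptor that carries polymeric immunoglobulin across epithelia, was at 60.4, 37.8, 196 and 95.3 CPM. Its promoter is shown here because it is the only one among the genes lower in both genotype comparisons that holds the TFEB element, and because the gene is among those whose level differs both by age and by genotype. The element searched was TCACGTGA, which reads the same on both strands. The 250 bases before the start site of Pigr, chr1:130826434-130826683 on the plus strand of GRCm38.p6 (RefSeq), are given with the element in capitals, and its first base lies at position -72 from the start site.
Pigr: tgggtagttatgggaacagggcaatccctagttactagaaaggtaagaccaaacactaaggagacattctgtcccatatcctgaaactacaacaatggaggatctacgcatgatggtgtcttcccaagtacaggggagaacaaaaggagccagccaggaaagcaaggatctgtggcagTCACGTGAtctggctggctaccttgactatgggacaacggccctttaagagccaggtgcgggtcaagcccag
The second promoter shown is that of Ifi30, a lysosomal thiol reductase gene, chr8:70766664-70766913 on the minus strand, with the first base of the element at position -197. Ifi30 was chosen for the element after its values had been seen, and was lower with age in both pairs at 55.7, 54.6, 34.2 and 35.1 CPM.
Ifi30: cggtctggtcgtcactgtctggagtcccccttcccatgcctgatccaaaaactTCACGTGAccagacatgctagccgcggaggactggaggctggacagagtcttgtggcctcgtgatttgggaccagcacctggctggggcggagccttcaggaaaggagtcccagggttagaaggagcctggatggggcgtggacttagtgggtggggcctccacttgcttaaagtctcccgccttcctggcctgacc
The element was found in 152 of 5406 promoters (2.81%) of compared genes, 80.7% of which had a promoter sequence in the RefSeq table. It was found in 1 of 28 promoters (3.57%) of the genes lower in both deletion pairs, a share near that of all promoters. For the other gene sets fewer than 80% of members had a promoter sequence, and the count is void. A match of these letters is a description and does not show binding.

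Among transporters, Slc5a12, the low-affinity lactate carrier of the early segment, was at 8.77, 11, 28.0 and 40.0 CPM, still far under the 418, 342, 534 and 657 CPM of Slc5a2-gated cells. Of 25 carriers of sugar, phosphate, sulfate and monocarboxylates, 4 were higher with age in Tfebfl/fl mice and 3 higher and 1 lower in Tfebfl/fl KAP mice, beside 3.69% of all genes higher in the former and 2.75% higher and 2.6% lower in the latter. Slc2a5, the fructose carrier, and Slc13a1, the sulfate carrier, were higher in both pairs. Of 21 amino acid and peptide carriers, 2 were higher with age in Tfebfl/fl mice, beside 3.69% of all genes. In Tfebfl/fl KAP mice 4 were higher and 1 lower, beside 2.75 and 2.6%. Slc7a7 and Slc6a19 were higher in both pairs, as were 1.51% of all genes. The log2 ratio of Slc6a19 in Tfebfl/fl mice was 0.39 after thinning to 2000 UMIs, in place of 1.21. Of 23 organic ion transporters, 1 was higher and 2 lower in the Tfebfl/fl pair and 3 were lower in the Tfebfl/fl KAP pair, beside 3.69% of all genes higher and 2.73% lower in the former and 2.6% lower in the latter. Slco1a1, at chr6:141907281-141946962, was one of those lower in both pairs, at 319, 520.2, 87.8 and 279 CPM, with log2 ratios by age of -1.86 (95% interval -1.92 to -1.80) and -0.90 (95% interval -0.94 to -0.86). Slc22a7, another organic anion transporter gene, was at 60.7, 43.7, 8.05 and 17.7 CPM. Without the cells that carried outer-stripe genes its log2 ratio in Tfebfl/fl mice was -1.63, in place of -2.91. Slc22a7 is itself among the genes that chose those cells, so this shift follows in part from the choice. Among 22 genes of endocytosis, Cubn, the receptor of filtered protein, was past 1.5-fold, a share near that of all genes. It was at 114, 105, 184 and 166 CPM, with log2 ratios by age of 0.69 and 0.66, which were 0.50 and 0.58 with the gate at 10 CP10k, and its partner Lrp2 was at 1105, 1055, 1263 and 1078 CPM.

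**Figure D3:**
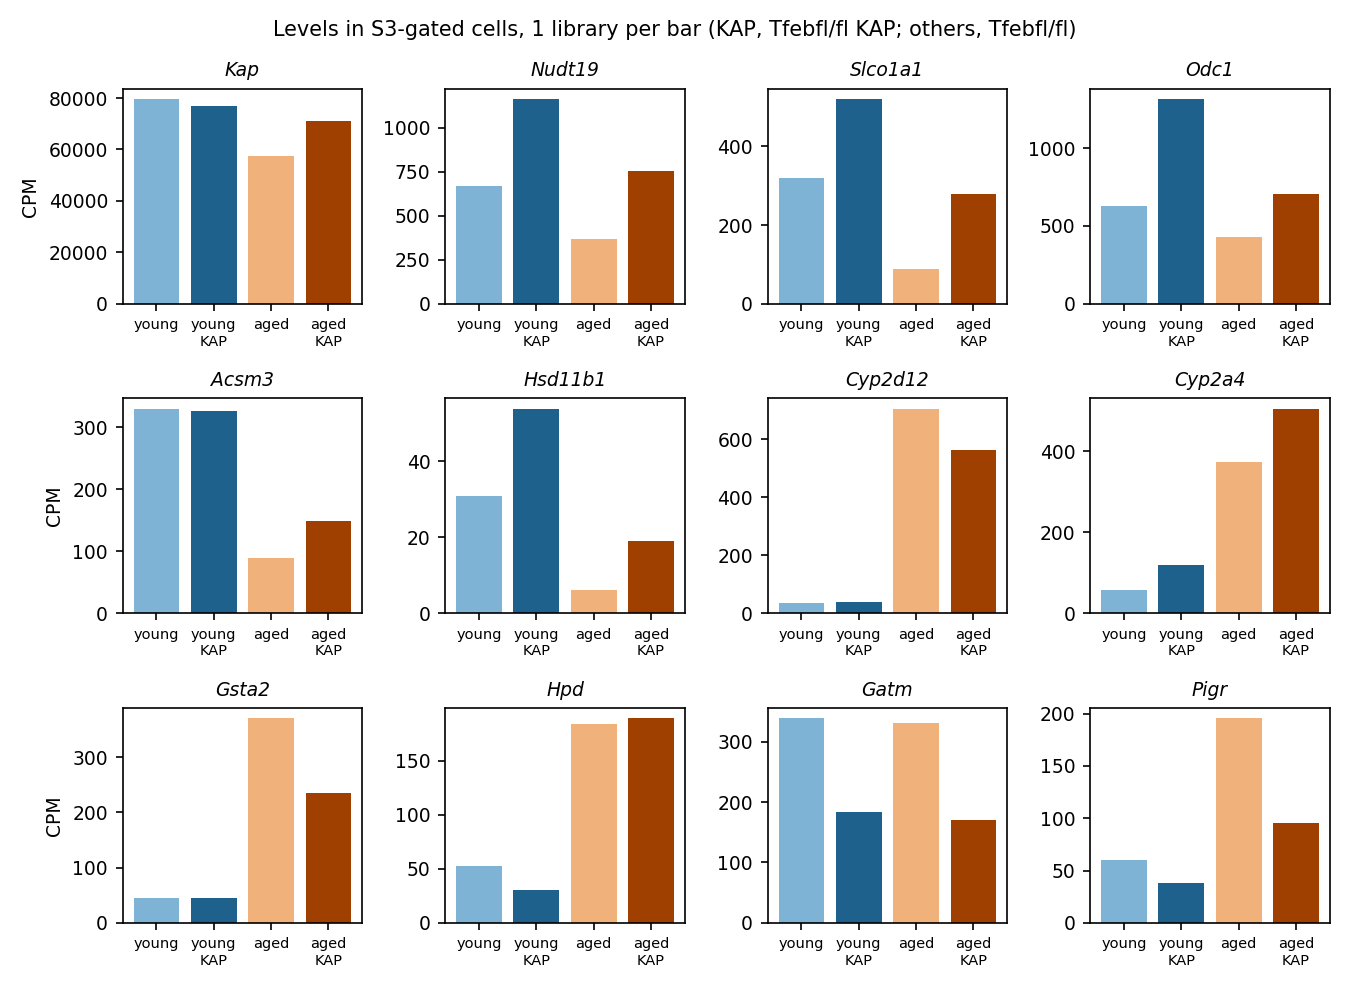
Level in S3-gated cells (CPM, axis from 0) of 12 genes, 1 bar per library. Cyp2d12 and Hpd separate aged from young libraries, Nudt19 and Odc1 lie higher in the KAP library at each age, and Gatm lies lower in it.

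Genes lower with age included sterol and fatty acid synthesis. Of 23 compared, 6 were lower and 2 higher in Tfebfl/fl mice and 9 lower and 1 higher in Tfebfl/fl KAP mice, beside 2.73% of all genes lower and 3.69% higher in the former and 2.6 and 2.75% in the latter. The median log2 ratios were -0.37 and -0.43. Cyp51, the sterol 14-demethylase gene, was at 102, 88.2, 41.3 and 31.5 CPM and Fasn, the fatty acid synthase gene, at 19.2, 22.7, 9.73 and 11.2 CPM. Both aged libraries were below both young ones for each gene, and Srebf1 and Insig1, a regulator and its partner, were lower in both pairs as well. Scd1 was lower in the Tfebfl/fl pair and higher in the Tfebfl/fl KAP pair, and Sc5d the reverse, but without the cells that carried outer-stripe genes the log2 ratio of Scd1 in the Tfebfl/fl pair was 0.14, in place of -1.19. In the barcodes outside both gates Cyp51 was at 37.1, 38.2, 34.6 and 27.9 CPM.

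Further genes were lower in both pairs. Hist1h4h, a histone H4 gene, was at 30.5, 38.2, 1.05 and 2.95 CPM, with log2 ratios of -4.84 and -3.69. Ucp2, a mitochondrial carrier gene, was at 18.0, 23.6, 3.15 and 3.01 CPM against 118, 115, 77.5 and 106 CPM in the barcodes outside both gates. Hsd11b1, which regenerates active glucocorticoid, was at 31.0, 53.9, 6.22 and 18.9 CPM. The cycling markers Mki67 and Top2a together were at 1.52, 0.619, 0.150 and 0.148 CPM, lower in both aged libraries, and their part in the Hist1h4h result was not tested. Acsm3 had log2 ratios of -1.89 (95% interval -1.95 to -1.83) and -1.13 (95% interval -1.18 to -1.07). Hmox1, haem oxygenase, was the 1 member of 25 NRF2 and oxidative stress genes lower in both pairs, beside 1.18% of all genes. It was at 27.2, 41.4, 14.9 and 16.5 CPM. In the Tfebfl/fl pair Osgin1 was also higher and Prdx1 lower, beside 3.69 and 2.73% of all genes, and each fell under 1.5-fold in another setting.

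Several lists differed between the ageing pairs in their counts, a difference that was not tested. Beside each count, 3.69% of all genes were higher and 2.73% lower in Tfebfl/fl mice, and 2.75 and 2.6% in Tfebfl/fl KAP mice. Cytosolic ribosomal protein genes were at least 1.5-fold higher in 13 of 80 cases with age in Tfebfl/fl mice, median 0.36, and in 0 of 80 in Tfebfl/fl KAP mice, median 0.08. For heat shock proteins 2 of 17 were higher and 1 lower in Tfebfl/fl mice and 9 lower in Tfebfl/fl KAP mice, with medians of 0.14 and -0.60. Hspa1b, an inducible HSP70 gene with a near-identical copy, stood at 7.80, 54.5, 13.7 and 5.46 CPM and was high in the young Tfebfl/fl KAP library, which was also the highest in the barcodes outside both gates, at 110.5, 142, 94.8 and 93.5 CPM. Of 24 genes of endoplasmic reticulum stress 9 were lower with age in Tfebfl/fl KAP mice, median -0.41, and in Tfebfl/fl mice 2 were lower and 2 higher, median 0.10. The chaperone gene Hspa5 was at 345, 526, 436 and 315 CPM, and at 426, 731, 497 and 404 CPM in the barcodes outside both gates, with the young Tfebfl/fl KAP library highest in both. Of 10 clock genes 5 were higher with age in Tfebfl/fl mice and 1 in Tfebfl/fl KAP mice. Dbp, a clock output gene, was at 9.69, 15.9, 42.5 and 15.9 CPM, and at 5.86, 7.0, 32.9 and 12.5 CPM in the barcodes outside both gates, so that the aged Tfebfl/fl library was the high one in both populations. The hour at which tissue was taken was not recorded in the sources read.

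**Figure D4:**
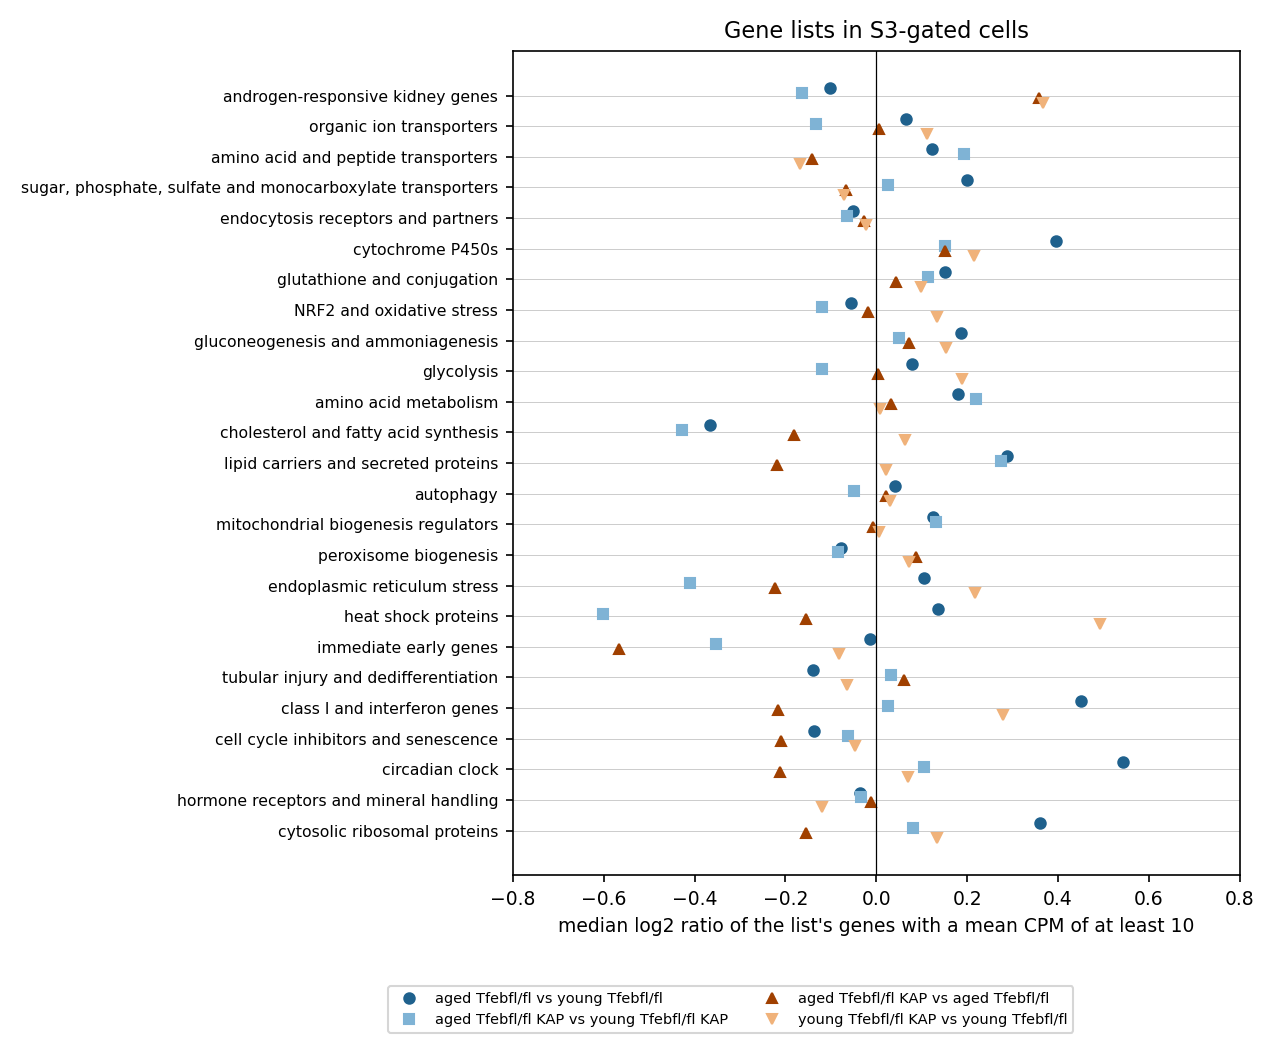
Median log2 ratio of CPM of the compared members of each gene list in S3-gated cells for the 4 comparisons, beside 0. Sterol and fatty acid synthesis lies below 0 in both ageing pairs, androgen-responsive genes lie above 0 in both deletion pairs, and heat shock proteins lie between -0.60 and 0.49.

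By genotype fewer genes were past 1.5-fold. In aged mice 97 genes (1.45%) were higher and 105 (1.57%) lower in Tfebfl/fl KAP than in Tfebfl/fl mice, and in young mice 89 (1.33%) were higher and 95 (1.42%) lower. The balance in young mice depended on the setting, with 106 higher and 259 lower with the gate at 10 CP10k. With at most 20% mitochondrial counts it was 84 higher and 199 lower. The pairs share no library, and 22 genes (0.329%) were higher in both, 22.7% of the aged and 24.7% of the young list, whereas 33 genes (0.493%) were lower in both, 31.4 and 34.7% of the lists. Median log2 ratios of all genes were -0.02 and 0.02, and r across genes was 0.268, below that of the ageing pairs. Each aged library also enters an ageing comparison, as does each young one, so genotype and age ratios of a gene are given side by side and not related to each other.

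**Figure D5:**
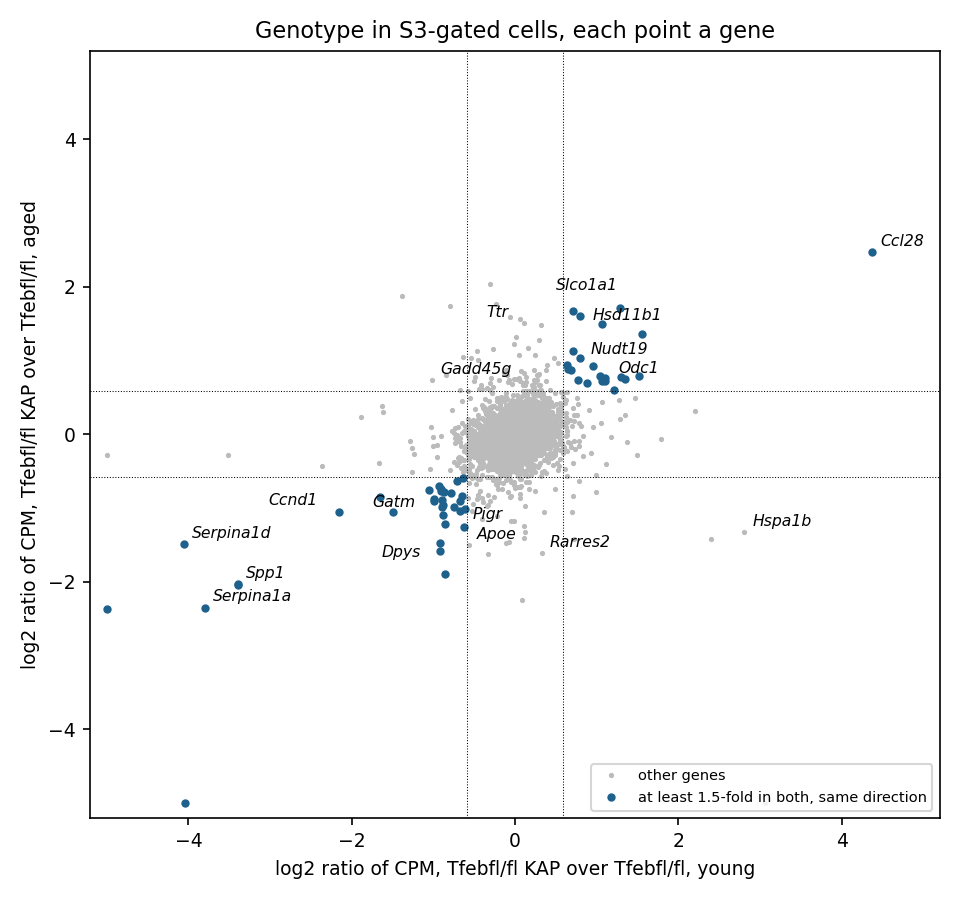
Log2 ratio of CPM, Tfebfl/fl KAP over Tfebfl/fl, in young (x) and aged mice (y) for 6696 genes in S3-gated cells, with dotted lines at 1.5-fold and points held at the frame beyond a log2 ratio of 5. Ccl28, Slco1a1, Nudt19, Hsd11b1 and Odc1 lie high in both, Serpina1a, Serpina1d, Spp1 and Ccnd1 low in both, and Hspa1b lies high in young and low in aged mice.

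Androgen-responsive genes lay above the median of all genes in both genotype comparisons. Of 18 compared, 7 were higher and 0 lower in young mice and 5 higher and 0 lower in aged mice, with median log2 ratios of 0.37 and 0.36, beside 1.33 and 1.45% of all genes higher. Some of the 7 fell under 1.5-fold in other settings. Cyp2j13, at 0.59, became 0.44 after thinning to 2000 UMIs, and Cyp2d9, also at 0.59, became 0.45 with at most 20% mitochondrial counts. Slco1a1 became 0.58 without UMIs of other cell types' genes. By age 2 of the 18 were higher and 4 lower in Tfebfl/fl mice, beside 3.69 and 2.73% of all genes. In Tfebfl/fl KAP mice 2 were higher and 6 lower, beside 2.75 and 2.6%. The medians by age were -0.10 and -0.16, and Hsd11b1, Acsm3, Slco1a1 and Nudt19 were lower in both pairs. In the Tfebfl/fl KAP pair the log2 ratio of Nudt19 was -0.63 and fell under 1.5-fold in some settings. It was -0.52 with at most 20% mitochondrial counts and -0.57 with CPM averaged over cells. Nudt19, a peroxisomal enzyme that splits coenzyme A, at chr7:35547185-35558643, was at 669, 1161, 369 and 752 CPM. Its log2 ratios by genotype were 0.80 (95% interval 0.77 to 0.83) in young and 1.03 (95% interval 1.0 to 1.06) in aged mice. Odc1, the first enzyme of polyamine synthesis and an androgen-induced gene of mouse kidney, was at 629, 1313, 426 and 703 CPM, with log2 ratios of 1.06 (95% interval 1.03 to 1.09) and 0.72 (95% interval 0.69 to 0.75). Slco1a1 had log2 ratios of 0.70 (95% interval 0.66 to 0.75) and 1.67 (95% interval 1.61 to 1.73), and Hsd11b1 of 0.80 (95% interval 0.66 to 0.94) and 1.6 (95% interval 1.38 to 1.84). For each of these 4 genes the KAP library was above its Tfebfl/fl library at each age, and the lowest value was that of the aged Tfebfl/fl library. Kap, whose promoter drives the Cre, was not among those past 1.5-fold, with log2 ratios by genotype of -0.05 and 0.31 and by age of -0.47 and -0.11. In Slc5a2-gated cells Kap was instead higher in the KAP library at each age.

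Acsm3 was higher only in the aged genotype comparison, 0.75 (95% interval 0.68 to 0.81) against -0.01 (95% interval -0.06 to 0.03) in young mice, and Cyp4a12a, a male-specific fatty acid hydroxylase gene, only in the young one, at 14.6, 67.2, 39.0 and 48.5 CPM. Whether these differences differ between the ages was not tested. Ly6e, a surface protein gene, was at 64.7, 165, 130.2 and 218 CPM, higher in the KAP library at each age, against 307, 349.7, 371 and 464 CPM in the barcodes outside both gates. Ccl28, a mucosal chemokine gene at chr13:119623819-119654359, had the largest ratio of the genes higher in both, at 2.36, 49.3, 0.661 and 3.72 CPM, with log2 ratios of 4.37 (95% interval 3.99 to 4.80) and 2.47 (95% interval 1.83 to 3.22). Most of its counts, 876 against 56, 22 and 126, came from the young Tfebfl/fl KAP library. Apoh, an apolipoprotein gene, was at 4.80, 13.8, 19.6 and 33.8 CPM, and Nat8f5, of an acetyltransferase family, at 16.5, 34.6, 12.3 and 34.6 CPM. The gate gene Slc5a2 was at 12.6, 25.8, 14.9 and 25.8 CPM, higher in both KAP libraries although the rule held it under 4 CP10k in each cell. With the gate at 10 CP10k the log2 ratios by genotype in aged mice fell under 1.5-fold for both Apoh and Slc5a2. They became 0.58 and 0.55, in place of 0.78 and 0.79.

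Some genes of this set are known from other cell types. Aqp2, the water channel of principal cells, was at 12.1, 35.7, 10.4 and 26.7 CPM in S3-gated cells and at 1057, 1091, 611 and 885 CPM in the barcodes outside both gates. Fxyd4 and Emcn, of the collecting duct and endothelium, were at 12.9, 31.5, 10.9 and 35.9 CPM and 5.06, 12.5, 10.3 and 17.7 CPM, against 739, 903, 459 and 784 CPM and 183, 234, 259 and 410.4 CPM. Cells scored as doublets held 55.6% of the Aqp2 counts in the aged Tfebfl/fl KAP library, and without doublets its log2 ratio in aged mice was 0.49, in place of 1.36. That of Emcn in aged mice was 0.36 after thinning to 2000 UMIs and 0.45 with the gate at 10 CP10k, in place of 0.78. With at most 20% mitochondrial counts it was 0.53, also under 1.5-fold.

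Genes lower in both genotype comparisons were headed by genes of other segments. S100g, a calcium binding protein of the distal nephron, was at 231, 3.32, 28.7 and 5.52 CPM in S3-gated cells and at 7159, 7673, 5843 and 7900.5 CPM in the barcodes outside both gates. Klk1, tissue kallikrein, was at 156, 9.46, 11.7 and 0 CPM, against 4581, 5378, 3879 and 4991 CPM in those barcodes, and the 0 counts in the aged Tfebfl/fl KAP library allow up to 0.0886 CPM. Defb1, a defensin gene, was at 54.6, 5.18, 5.89 and 1.42 CPM, against 2364, 2162, 1442 and 1971 CPM there. Outside the young Tfebfl/fl library few cells held these counts. All counts of S100g lay in 1 cell of the young Tfebfl/fl KAP, 2 of the aged Tfebfl/fl and 1 of the aged Tfebfl/fl KAP library, and those of Klk1 in 2, 2 and 0 cells, all scored as doublets. Without doublets both aged libraries had 0 counts of S100g and of Klk1, so that no difference by genotype could be read in aged mice. The aged log2 ratio of Defb1 was -2.04, but -0.38 with CPM averaged over cells. In the young Tfebfl/fl library 73 cells held S100g and 213 held Klk1, and doublets had 80.9 and 80.8% of the counts. Spp1, osteopontin, was at 101, 9.57, 49.2 and 12 CPM, against 3238, 2366, 1713 and 1921 CPM there. For each of these genes the young Tfebfl/fl library was the highest, which is also the library with the fewest entries set to 0 by the background correction. The part of that correction in these results was not tested. When only genes at least as high in S3-gated cells as in the barcodes outside both gates were counted in every library, a restriction added after seeing the data, 12 genes were higher and 11 lower in both genotype comparisons, in place of 22 and 33.

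Other genes were lower in both as well. Gatm, at 339, 184, 331 and 171 CPM, had log2 ratios of -0.88 (95% interval -0.94 to -0.82) in young and -0.95 (95% interval -1.0 to -0.91) in aged mice, with each KAP library near the other. Slc5a2-gated cells held far more Gatm and also had less of it in each KAP library than in its Tfebfl/fl library. Dpys, the dihydropyrimidinase gene of pyrimidine breakdown, was at 58.4, 31.0, 112 and 37.4 CPM, and Pigr had log2 ratios of -0.68 (95% interval -0.81 to -0.54) and -1.04 (95% interval -1.10 to -0.98), the former -0.56 with the gate at 10 CP10k, under 1.5-fold. Serpina1a and Serpina1d, copies of the alpha-1-antitrypsin gene whose counts can be split among near-identical family members, were at 24.7, 1.75, 34.2 and 6.70 CPM and 34.1, 2.03, 8.26 and 2.92 CPM. In the barcodes outside both gates they were at 0.889, 0.152, 4.40 and 0.459 CPM and 1.21, 0.492, 2.02 and 3.43 CPM, so that Serpina1d was no higher in S3-gated cells than there in the aged Tfebfl/fl KAP library. Much of Serpina1d in the young Tfebfl/fl library lay in cells with outer-stripe genes, since without these its log2 ratio by age in Tfebfl/fl mice was 1.17, in place of -2.05. With at most 20% mitochondrial counts the log2 ratio of Serpina1d by genotype in aged mice was -0.09, in place of -1.49. Ccnd1, cyclin D1, was at 86.8, 19.5, 44.6 and 21.5 CPM, against 388, 323, 284 and 326 CPM in the barcodes outside both gates.

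Further genes were past 1.5-fold in aged mice only. Apoe, apolipoprotein E, was at 40.1, 27.1, 121 and 42.5 CPM, with log2 ratios by genotype of -1.5 (95% interval -1.59 to -1.42) in aged and -0.57 (95% interval -0.73 to -0.41) in young mice. Slc5a2-gated cells, which held far more of it, had 1203, 1046, 1051 and 604 CPM. Rarres2, the gene of the adipokine chemerin, was at 191, 239.5, 281 and 92.0 CPM, Cyp4a14, a fatty acid hydroxylase gene, at 102, 81.2, 151 and 48.9 CPM, and Aacs, which activates acetoacetate for lipid synthesis, at 64.2, 69.4, 57.8 and 24.5 CPM. For Rarres2 and Aacs the aged Tfebfl/fl KAP library was the only one apart from the other 3. Ttr, transthyretin, was higher there than in aged Tfebfl/fl mice, at 85.4, 91.9, 23.5 and 66.7 CPM, since the aged Tfebfl/fl library was the low one. Chd9, a chromatin remodeller gene, and Polr3e, a subunit of RNA polymerase III, were highest in the aged Tfebfl/fl KAP library at 244, 245, 158 and 396 CPM and 141, 97.4, 101 and 208 CPM.

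Immediate early genes were the list with the lowest median by genotype in aged mice. Of 21 compared, 10 were lower and 1 higher in aged mice (median log2 ratio -0.57), beside 1.57 and 1.45% of all genes, and 4 lower and 1 higher in young mice, median -0.08, beside 1.42 and 1.33%. Fos was at 326, 213, 277 and 137 CPM, Klf6 at 80.6, 87.0, 97.4 and 36.7 CPM and Atf3 at 19.4, 20.5, 20.1 and 4.25 CPM. The aged Tfebfl/fl KAP library was the lowest for each, as it was in the barcodes outside both gates, which held Fos at 2077, 2158, 2101 and 1458 CPM and Atf3 at 355, 562, 514 and 309 CPM. These genes are known to respond to tissue digestion, whose part in this result was not tested. By genotype in aged mice 16 of the 21 had log2 ratios below 0 and 5 above it. The 1 gene past 1.5-fold higher was Gadd45g, a stress-induced growth arrest gene, at 195, 96.6, 98.3 and 164 CPM.

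In young mice, 6 of 17 heat shock genes were higher and 1 lower in the KAP library, beside 1.33 and 1.42% of all genes, with a median log2 ratio of 0.49. Hsph1, a co-chaperone gene, was at 76.7, 137, 90.2 and 73.2 CPM. Gstp1, a glutathione transferase gene, was at 221, 380.3, 424 and 470.3 CPM, with the young Tfebfl/fl library below the other 3. Gdf15, a stress-induced cytokine gene, was at 106, 186, 56.9 and 61.4 CPM. Its log2 ratio by genotype in young mice was 0.47 with at most 20% mitochondrial counts, in place of 0.81. Prxl2b, of the peroxiredoxin-like family, was at 90.2, 28.8, 112 and 62.1 CPM, past 1.5-fold lower in the KAP library at each age and lowest in the young one. AY036118, a gene model that overlaps ribosomal RNA, was also lowest there, at 113, 21.9, 117 and 86.6 CPM, as it was in the barcodes outside both gates, at 121, 57.4, 168 and 114 CPM. Car14, a membrane-bound carbonic anhydrase gene, was likewise past 1.5-fold lower in the KAP library at each age, at 83.2, 41.7, 100.3 and 53.3 CPM.

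The list of class I and interferon genes also holds the class II genes H2-Ab1 and Cd74, and 11 of its genes were compared. With age 4 were higher in Tfebfl/fl mice, median 0.45 (Ifi27, H2-Ab1, H2-K1 and Cd74), beside 3.69% of all genes. In Tfebfl/fl KAP mice 1 was higher and 1 lower, median 0.03, beside 2.75 and 2.6% of all genes. By genotype 3 were lower in aged mice, beside 1.57% of all genes, and 3 higher in young mice, beside 1.33%. No class I gene was among them, whereas H2-Ab1 and Cd74, which antigen-presenting cells express, were among them each time. H2-Ab1 was at 7.92, 15.8, 27.6 and 16.1 CPM against 56.3, 70.4, 147 and 122 CPM in the barcodes outside both gates, and Cd74 at 13.4, 21.7, 21.3 and 10.2 CPM against 178, 221, 428 and 347 CPM. Cd74 is also the most abundant gene of the myeloid sum given above, so that the sum is no separate measure of it. In the young libraries 1 cell held 53.9% of its counts in Tfebfl/fl and 1 cell 39.4% in Tfebfl/fl KAP mice. By age in Tfebfl/fl mice its log2 ratio was 0.20 with at most 20% mitochondrial counts, in place of 0.66, and by genotype in aged mice -0.26 with the gate at 10 CP10k, in place of -1.05. Of 35 autophagy genes, 0 were past the fold by genotype in aged mice and 2 in young mice, 1 in each direction. These counts are near the shares of all genes (1.45 and 1.57% in aged, 1.33 and 1.42% in young mice). Of 18 genes of peroxisome biogenesis 1 was past it in any comparison, lower with age in Tfebfl/fl mice, beside 2.73% of all genes. Of 8 glycolytic genes none was past it in any comparison, where between 1.33 and 3.69% of all genes were in each direction. Of 19 genes of gluconeogenesis and ammonia formation none was past it by genotype, beside the genotype shares just given. No metallothionein gene reached a mean of 10 CPM over the 4 libraries, and their sum was highest in the young Tfebfl/fl library, with 29.3, 1.86, 5.22 and 3.69 CPM.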

How the data were processed

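Single-cell 3′ libraries of renal cortex (1 per condition, each from pooled mice) were used as deposited. Per the submitters' processing notes and the methods, the authors mapped reads to mm10 and counted UMIs in Cell Ranger 6.0.0, corrected background RNA with SoupX and analysed cells in Seurat 4.4.0. The files deposited hold whole UMI counts per gene and barcode after this correction, so that explicit zeros remain in the files. The background correction and pooling can change levels of genes that other cells make in abundance.

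From there, barcodes were gated as described, counts were summed over gated cells per library, and genes with a mean of at least 10 CPM were compared. A pseudocount of 0.5 UMI was added for log2 ratios. Their 95% intervals are exact binomial intervals of both counts. Doublets were scored with Scrublet in scanpy 1.11.5 at 0.8% per 1000 barcodes and kept in the main values. With 1 library per condition no test, p-value or SE was computed, and 1.5-fold is a size rule. Tested on simulated data with 200 of 6696 genes changed, the script found 100% of changed genes past the fold, and between 95.2 and 95.8% of intervals covered the true ratio. The simulated counts had counting error alone, and each changed gene was changed by at least 2-fold. This outcome therefore checks the arithmetic only. It cannot show how often differences between mice or preparations pass 1.5-fold.

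Named genes were, in each comparison, the 10 highest and 10 lowest ratios among genes with a mean of at least 50 CPM whose direction held with at most 20% mitochondrial counts and without doublets, the 10 genes past the fold in both pairs that share no library, the leading members of 27 gene lists, the gate markers and Tfeb with its relatives. Other genes, such as markers of segments and of other cell types, were named after their values were seen. Some genes that this rule names are not reported here. The members and the lists were chosen with earlier results of these data known. Alternatives changed the mitochondrial filter, doublets, the gate, scaling, weighting of cells, depth, the filter on low values and the fold. Promoters and positions are RefSeq, GRCm38.p6. Scripts ran in Python 3.11.15 with pandas 2.3.3, matplotlib 3.10.9, scipy 1.17.1 and numpy 2.4.6.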

Additional observations from a re-analysis of the deposited data

Results flagged for a closer look

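A gene named for a comparison or as a leading member of a list was picked out when its levels moved in opposite directions in 2 pairs of libraries that share none, by at least 1.5-fold in each. With 1 library per group, whether such differences differ was not tested, and the values by age and by genotype are the same 4 levels read in both ways. In all, 18 of 6696 genes moved in opposite directions past 1.5-fold by age and 14 by genotype.

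Gadd45g, a stress-induced growth arrest gene, was at 195, 96.6, 98.3 and 164 CPM, with log2 ratios by age of -0.99 in Tfebfl/fl and 0.76 in Tfebfl/fl KAP mice and by genotype of 0.74 in aged and -1.01 in young mice. Slc5a2-gated cells held 171, 93.5, 159 and 356 CPM, again with the young Tfebfl/fl KAP library lowest. Chd9, a chromatin remodeller gene, was at 244, 245, 158 and 396 CPM, with log2 ratios by age of -0.63 in Tfebfl/fl and 0.69 in Tfebfl/fl KAP mice, and Slc5a2-gated cells held 322, 392, 324 and 689 CPM. Ddit4, a stress-induced inhibitor of mTORC1, was at 24.7, 14.1, 3.39 and 11.4 CPM, with log2 ratios by genotype of 1.74 in aged and -0.80 in young mice.

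The near-identical HSP70 genes Hspa1a and Hspa1b were high in the young Tfebfl/fl KAP library. Hspa1b had log2 ratios by age of 0.81 and -3.32 and by genotype of -1.32 in aged and 2.80 in young mice. Hspa1a, at 4.97, 26.4, 7.69 and 2.86 CPM, had 0.62 and -3.20 by age and -1.42 and 2.40 by genotype. By age in Tfebfl/fl mice both fell under 1.5-fold with at most 20% mitochondrial counts, Hspa1b to 0.41 and Hspa1a to 0.44. Hspa1a also did so with the gate at 10 CP10k, to 0.52, and without any Slc5a2 UMI, to 0.35. By genotype in aged mice Hspa1b became -0.55 after thinning to 2000 UMIs, again under 1.5-fold. The clock genes Dbp and Per3 were highest in the aged Tfebfl/fl library, Dbp with log2 ratios by genotype of -1.42 in aged and 0.72 in young mice, and Per3, at 8.64, 14.1, 24.6 and 13.8 CPM, with -0.83 and 0.70. In young mice Dbp became 0.43 and Per3 0.52 with at most 20% mitochondrial counts, and Dbp turned to -0.10 after thinning to 2000 UMIs. Sterol and fatty acid synthesis held Sc5d, at 10.1, 21.8, 18.6 and 14.1 CPM, with log2 ratios by age of 0.88 and -0.63, and Scd1, at 23.3, 7.54, 10.2 and 12.6 CPM, with -1.19 and 0.73. With at most 20% mitochondrial counts the former ratio of Sc5d became 0.50. The former ratio of Scd1 became 0.14 without outer-stripe cells and the latter 0.045 with the gate at 10 CP10k.

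The others are genes of other cell types. S100g had log2 ratios by age of -3.01 in Tfebfl/fl and 0.73 in Tfebfl/fl KAP mice, the latter from 1 cell in each library, both scored as doublets. Calb1, calbindin of the distal nephron, was at 47.0, 0, 0.540 and 0.443 CPM, with -6.40 and 4.02. The latter rests on 15 counts in 1 doublet against 0 counts, and its size depends on the pseudocount. Umod, which the gate limits, had -1.78 and 1.45. Cd74 had 0.66 and -1.08 by age and -1.05 in aged and 0.69 in young mice by genotype, and H2-Ab1 had -0.78 and 1.0 by genotype. In aged over young Tfebfl/fl mice Cd74 became 0.20 and by genotype in young mice 0.49 with at most 20% mitochondrial counts, and by genotype in aged mice it became -0.26 with the gate at 10 CP10k. H2-Ab1 in aged mice became -0.39 after thinning.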

How the results depend on the processing

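Each result was recomputed with one choice changed at a time, and 2 choices, leaving out cells with outer-stripe genes and counting only genes at least as high in S3-gated cells as in the barcodes outside both gates, were added after seeing the data. No paired analysis was possible because each condition is 1 library. Of 936 list medians recomputed 64 changed sign, and of 3631 single-gene ratios 36 did. Counts of genes follow the filter by construction. They are given in the order higher and lower for aged over young Tfebfl/fl, aged over young Tfebfl/fl KAP, KAP over Tfebfl/fl in aged and in young mice, both ageing pairs and both genotype pairs. At 2-fold they were 72, 55, 58, 53, 28, 36, 27, 27, 36, 19, 4 and 8. With a mean of at least 50 CPM they were 83, 40, 55, 48, 23, 26, 24, 20, 29, 15, 5 and 7, and with no filter 1745, 2244, 1701, 2310, 1685, 1787, 1402, 1723, 563, 802, 310 and 440. For genes at least as high as in the barcodes outside both gates they were 118, 57, 88, 60, 49, 33, 43, 25, 55, 26, 12 and 11. Cells thinned to 2000 UMIs, where few counts remain per gene, gave 474, 407, 561, 351, 291, 223, 358 and 419 for the 4 comparisons and 60 and 52 for both genotype pairs.

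Other settings moved fewer counts by over 1.5 times, and the cause was not tested. With at most 20% mitochondrial counts, 282 genes were higher with age in Tfebfl/fl KAP mice and 199 lower by genotype in young mice, and with CPM averaged over cells 279 and 148. With the gate at 10 CP10k, 283 genes were lower with age in Tfebfl/fl mice, 259 lower by genotype in young mice and 58 lower in both genotype pairs. Members of the lists numbered 65 higher with age in Tfebfl/fl KAP mice, 31 higher by genotype in aged mice and 40 lower by genotype in young mice after thinning, and 44 lower in young mice with the gate at 10 CP10k, against 43, 19 and 25.

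The share of S3-gated cells was higher in both aged libraries under every choice tried. It was 3.41, 3.86, 7.13 and 10.8% with the gate at 10 CP10k, 8.58, 6.85, 17.5 and 14.2% without any Slc5a2 UMI, and 5.72, 5.55, 11.7 and 11.5% without any UMI of other cell types' genes. At most 20% mitochondrial counts gave 7.98% in young Tfebfl/fl, 16.1% in aged Tfebfl/fl and 14.5% in aged Tfebfl/fl KAP mice, and leaving out outer-stripe cells 9.46% in young Tfebfl/fl mice.

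Of 382 single-gene ratios past 1.5-fold, 100 fell under it in some setting, and 10 values, of 9 genes, reversed. In aged over young Tfebfl/fl KAP mice Defb1 became 0.45 with CPM averaged over cells and 0.23 after thinning, Fos 0.036 and Slc22a7 0.0029 after thinning, and Fabp4 0.55 without UMIs of other cell types' genes. In aged over young Tfebfl/fl mice Serpina1d became 1.17 and Scd1 0.14 without outer-stripe cells, and Apob -0.18 with the gate at 10 CP10k. By genotype in young mice Dbp became -0.10 and Prom1 0.33 after thinning. No ratio was given in 32 cases, of 8 genes, where both libraries had at most 3 counts, as for S100g and Klk1 in aged mice without doublets. In contrast, the log2 ratio of Cyp2d12 by age stayed between 3.96 and 4.80 in Tfebfl/fl and between 3.75 and 4.19 in Tfebfl/fl KAP mice, and that of Nudt19 by genotype between 0.70 and 0.82 in young and 1.01 and 1.06 in aged mice, over the settings tried for single genes. Slco1a1 in young mice fell to 0.58 without UMIs of other cell types' genes, just under 1.5-fold.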

Other observations

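Lists not described above held the following, beside 3.69% of all genes higher and 2.73% lower with age in Tfebfl/fl mice, 2.75 and 2.6% in Tfebfl/fl KAP mice, and by genotype 1.45 and 1.57% in aged and 1.33 and 1.42% in young mice. Of 21 genes of lipid carriers and secreted proteins, 4 were higher and 4 lower with age in Tfebfl/fl mice and 6 higher and 4 lower in Tfebfl/fl KAP mice, and by genotype 4 were higher and 4 lower in aged and 2 higher and 3 lower in young mice. These counts include Umod, which the gate itself limits, lower with age in Tfebfl/fl mice, higher with age in Tfebfl/fl KAP mice and lower by genotype in young mice. Apob, the structural protein of lipoproteins, was at 8.77, 2.82, 18.8 and 24.5 CPM, higher in both aged libraries, as it was in Slc5a2-gated cells at 60.0, 87.4, 301 and 306 CPM, although with the gate at 10 CP10k its log2 ratio by age in Tfebfl/fl mice was -0.18, in place of 1.10. Angptl4, an inhibitor of lipoprotein lipase, was at 31.0, 37.4, 39.5 and 69.2 CPM, with the aged Tfebfl/fl KAP library above the other 3. Of 24 genes of hormone signalling and mineral handling, Agt, angiotensinogen, was lower in the KAP library at each age, at 31.7, 17.1, 21.7 and 11.7 CPM, with log2 ratios of -0.89 (95% interval -1.09 to -0.70) in young and -0.90 (95% interval -1.08 to -0.72) in aged mice, the latter -0.35 after thinning to 2000 UMIs. Of 21 regulators of mitochondrial biogenesis 2 were higher and 3 lower with age in Tfebfl/fl mice and 1 higher in Tfebfl/fl KAP mice, and by genotype 2 were higher in aged and 1 higher and 2 lower in young mice. Ppara, the fatty acid sensing nuclear receptor, was at 31.7, 41.3, 62.1 and 49.1 CPM. Of 9 injury genes, 2 were lower by genotype at each age (Spp1 and Prom1), and by age 2 were lower in Tfebfl/fl and 1 in Tfebfl/fl KAP mice. With CPM averaged over cells the log2 ratios of Prom1 were -0.53 in aged and -0.45 in young mice, under 1.5-fold. By age in Tfebfl/fl mice that of Spp1 was -0.29 without doublets and -0.45 with at most 20% mitochondrial counts, in place of -1.04. Of 9 cell cycle and senescence genes, Ccnd1 and Gdf15 were lower with age in Tfebfl/fl mice and Gdf15 in Tfebfl/fl KAP mice. By genotype Ccnd1 was lower at each age and Gdf15 higher in young mice, the latter under 1.5-fold with at most 20% mitochondrial counts. The P450 gene Cyp2d9, which is also androgen-responsive, was at 143, 215, 320.1 and 454 CPM, higher in both aged libraries and in the KAP library at each age, although by genotype the aged ratio stayed under 1.5-fold and the young one, 0.59, fell under it in 5 other settings, to 0.45 at the lowest.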
